A study of Mus musculus with 6 samples.

Results

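Natural killer (NK) cells of the mouse liver that carried a transcript of the transcription factor Eomes are described here. In the unique molecular identifier (UMI) counts of 6 livers they were chosen by their own counts: among barcodes of 300 or more genes whose mitochondrial share was 20% or less, those that held at least 1 Ncr1 UMI, at least 2 UMIs of Ncr1 and Klrb1c together, at least 1 Eomes UMI, no Cd3d, Cd3e or Cd3g UMI, and at most 1 UMI of Cd79a and Ms4a1 together. There were 169 such cells among 42682 kept barcodes. Cells that passed the same gate with 0 Eomes UMIs numbered 1283 and are called Eomes-negative Ncr1 cells. Ncr1, Klrb1c, Eomes, the Cd3 genes, Cd79a and Ms4a1 were used to choose the cells, so their values are given as a description and support nothing.

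The study compared 3 Stingfl/fl Cdh5-Cre+ mice, called knockout below, with 3 littermate Stingfl/fl Cdh5-Cre- mice, called control. Both groups carried floxed Sting alleles, ate chow until 8 weeks of age and then received WD-CCl4, a western diet with carbon tetrachloride, for 12 weeks, a regimen used to produce metabolic dysfunction-associated steatohepatitis (MASH). Cre under the Cdh5 promoter is directed at endothelial cells, so NK cells are not the intended site of the deletion, and its reach into blood cells was not tested. Each library was made from the dissociated liver of 1 mouse with the 10x Genomics 3′ chemistry. The labels name the cell type as liver sinusoidal endothelial cells, while 8504 of the kept barcodes were B cells, taken as barcodes with at least 2 UMIs of Cd79a and Ms4a1 and none of Ncr1 or the Cd3 genes. Within the Eomes-positive cells the 12 endothelial markers summed to 163.1 to 831 counts per 1000000 UMIs (CPM) in knockout and 169 to 353 CPM in control livers.

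NK cells are innate lymphocytes that kill by releasing perforin and granzymes and that secrete interferon-gamma. The liver holds them beside type 1 innate lymphoid cells (ILC1), which share the receptor NKp46, encoded by Ncr1, and the receptor NK1.1, encoded by Klrb1c. Eomes, a T-box transcription factor, is the factor usually used to tell circulating NK cells from ILC1, while its relative T-bet, encoded by Tbx21, is made in both. In mice, receptors of the Ly49 family, encoded by Klra genes, read MHC class I on other cells and are expressed by NK cells in varied combinations.

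The knockout libraries gave 25, 25 and 39 Eomes-positive cells, and the control libraries gave 33, 25 and 22. These were 0.347%, 0.384% and 0.553% of kept barcodes in knockout livers, against 0.411%, 0.277% and 0.452% in control livers. The means were 0.428% ± 0.11 in knockout and 0.38% ± 0.0913 in control livers (SD, n = 3 each). The genotypes overlapped, and the difference of 0.0478 percentage points did not pass an exact two-sided permutation test (p = 0.6), where 0.1 is the smallest p that 3 against 3 mice allow. The sign of this small difference was not stable: it was -0.0147 without knockout 3, -0.00355 without control 2 and -0.0233 for cells with at least 2 Eomes UMIs.

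Among all Ncr1-gated cells, Eomes-positive cells made up 9.16%, 13.4% and 19% in knockout livers, against 9.97%, 9.54% and 11.3% in control livers. Knockout 3 stood highest, and the 95% Clopper-Pearson intervals of the other knockout libraries covered values seen in controls. The means of 13.9% ± 4.95 in knockout and 10.3% ± 0.939 in control livers differed by 3.57 percentage points (exact two-sided permutation p = 0.4). Without knockout 3 the difference was 0.979 percentage points, and with cells thinned to 1500 UMIs before the gate it was 0.33. Intervals on these shares cover counting error only.

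**Figure D1:**
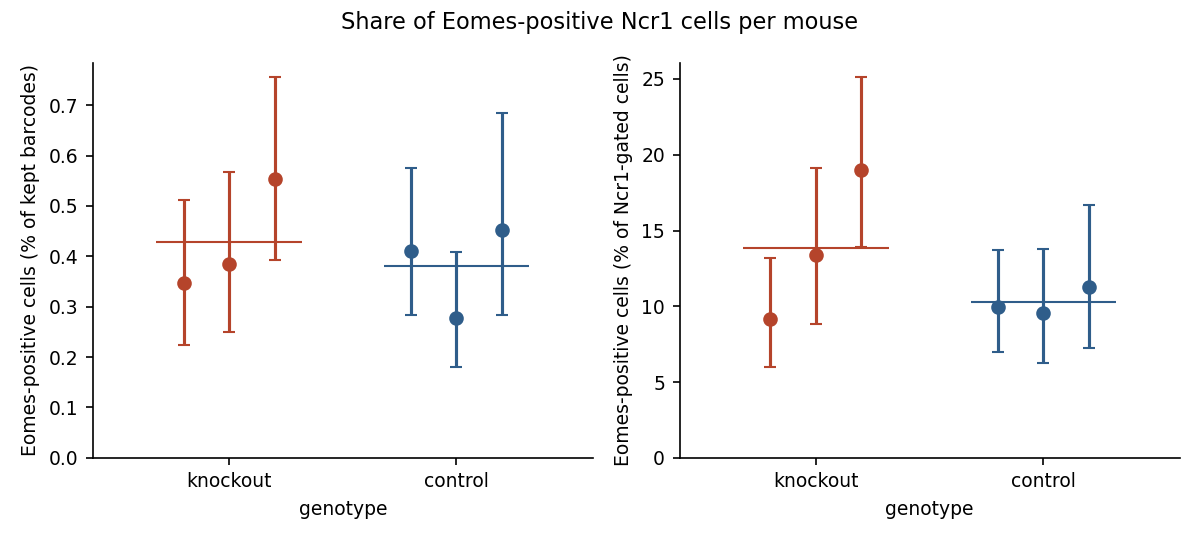
Eomes-positive cells as a percentage of kept barcodes (left) and of Ncr1-gated cells (right) in each mouse, with knockout mice left of control mice; points are libraries in the order of replicate 1 to 3, bars are 95% Clopper-Pearson intervals and horizontal lines are group means. The highest share in both plots is knockout 3, at 0.553% and 19%, and the genotypes overlap in both.

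Median depth was 6297 to 7341 UMIs per Eomes-positive cell and 5814 to 7309 UMIs per Eomes-negative cell in the 6 libraries. No Eomes-positive barcode was shared between any of the 15 pairs of libraries. Knockout 3 stood apart in depth: 8 of its 39 Eomes-positive cells held 15000 or more UMIs, with 68821 in the deepest, and these cells gave 49.5% of its summed UMIs. The other libraries had between 0 and 2 such cells. With them went transcripts of other lineages. The 9 cholangiocyte markers summed to 6253 CPM in knockout 3, against 16.3 and 53.9 CPM in the other knockout libraries and 17.8 to 72.1 CPM in controls. The 12 hepatocyte markers summed to 2841 CPM in knockout 3, against 32.6 and 53.9 CPM in the other knockout libraries and 22.2 to 85.3 CPM in controls. Control 3 had 6735 CPM of neutrophil markers, against 0 and 4.44 CPM in the other controls. Without cells of 15000 or more UMIs these sums fell to 48.9 CPM for cholangiocyte markers and 66.7 CPM for hepatocyte markers in knockout 3, and 30.7 CPM for neutrophil markers in control 3. Results are therefore also given without those cells.

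The gate left a population in which the marker genes outside the rule were frequent but not universal. Gzma, a granzyme (chromosome 13, 113093825 to 113100981, minus strand, mm10), had a UMI in 57.4% of Eomes-positive cells, against 13.1% of Eomes-negative cells and 0.776% of B cells, which should lack it. Prf1, which encodes perforin (chromosome 10, 61297833 to 61304680, plus strand), had a UMI in 53.3% of Eomes-positive cells, against 28.9% of Eomes-negative cells and 1.48% of B cells. Median depth in B cells was 4236 to 6175 UMIs. With each cell thinned to 1500 UMIs the shares for Gzma were 47.3% in Eomes-positive and 9.11% in Eomes-negative cells. A Tbx21 UMI was about as frequent in both sets, at 84% of Eomes-positive and 87.3% of Eomes-negative cells, against 5.32% of B cells.

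The threshold of 1 Eomes UMI lies within sparse counts. Of the 169 cells, 78 had exactly 1 Eomes UMI, 32 had 2, 21 had 3, and 38 had 4 or more. An Eomes UMI was found in 11.6% of Ncr1-gated cells and in 0.317% of 8504 B cells. Cells just inside the threshold were less like the rest of the set: 42.3% of those with 1 Eomes UMI had a Gzma UMI, against 70.3% of those with at least 2. The order was the other way for the ILC1-associated genes Tmem176a and Tmem176b, of which a UMI was present in 43.6% of cells with 1 Eomes UMI and 15.4% of cells with at least 2. Just outside the threshold, with 0 Eomes UMIs, Il7r or a Tmem176 gene was detected in 88.6% of cells, and in 34.9% of all Eomes-positive cells.

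Ly49 receptors were frequent in Eomes-positive cells and rare in their Eomes-negative neighbours. At least 1 of 9 Klra genes listed had a UMI in 119 of 169 Eomes-positive cells, and 98 of 169 had 2 or more. Counts of 0, 1, 2, 3 and 4 or more Klra genes per cell were found in 50, 21, 39, 42 and 17 Eomes-positive cells, against 1138, 108, 14, 15 and 8 of the 1283 Eomes-negative cells. Klra8, which encodes the activating receptor Ly49H, was detected in 41.4% of Eomes-positive and 2.34% of Eomes-negative cells. Klra4, which encodes the activating receptor Ly49D, was detected in 34.3% of Eomes-positive and 1.48% of Eomes-negative cells. The inhibitory receptors encoded by Klra7 (Ly49G), Klra3 (Ly49C) and Klra9 (Ly49I) were detected in 31.4%, 27.2% and 23.1% of Eomes-positive cells, against 2.18%, 4.29% and 4.52% of Eomes-negative cells. None of these 5 genes had a UMI in more than 0.247% of B cells. The Klra genes form a cluster of close relatives on chromosome 6, so the split of reads between members is uncertain. Klra4, Klra8, Klra9, Klra7, Klra3 and Klra1 lie on its minus strand, from 130043731, the start of Klra4, to 130386874, the end of Klra1 (mm10).

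**Figure D2:**
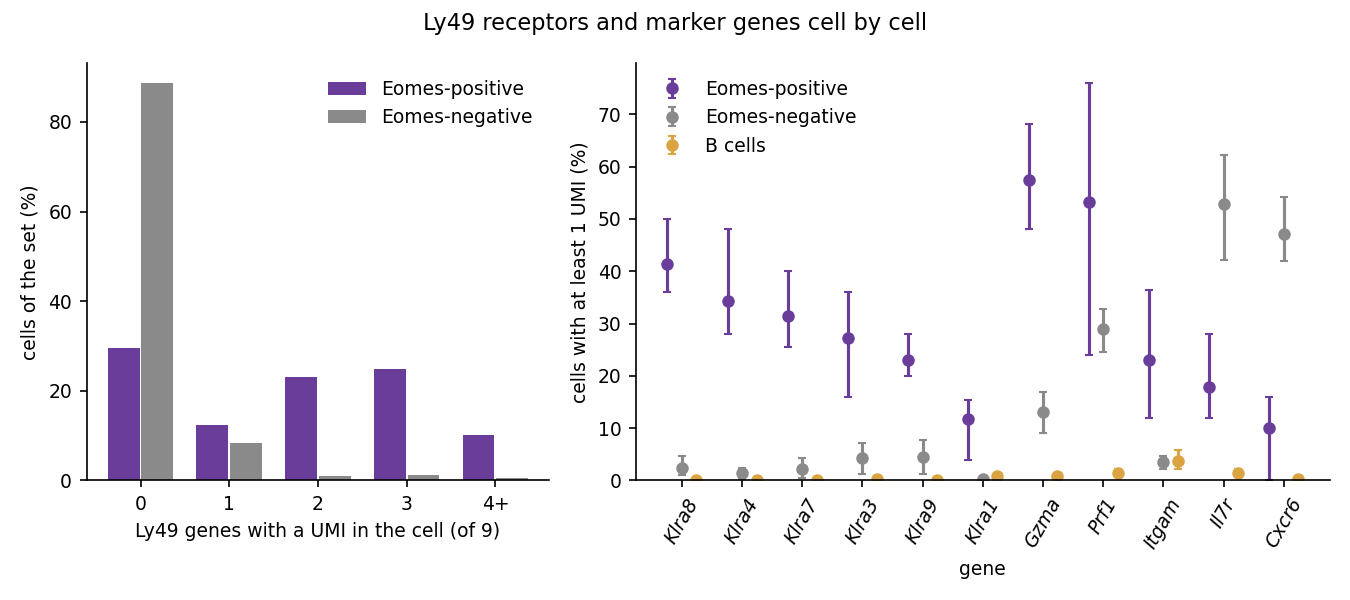
Left, percentage of Eomes-positive and Eomes-negative Ncr1 cells by the number of Klra (Ly49) genes with a UMI; right, percentage of cells with at least 1 UMI of each gene, where points are all cells of the set and bars run from the lowest to the highest library. In the left plot 50 of 169 Eomes-positive cells and 1138 of 1283 Eomes-negative cells have none of the 9 genes; in the right plot the bars of both sets do not meet for the 6 Klra genes drawn, and B cells lie near 0 for them.

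Mouse NK cells are staged by 2 surface proteins, CD27 on less mature and CD11b (Itgam) on more mature cells. Here only their transcripts were counted, and these divided the set unevenly. A Cd27 UMI alone was found in 38 of the Eomes-positive cells, Itgam alone in 30, both in 9, and neither in 92. Cd27 was about as frequent in both sets, with a UMI in 27.8% of Eomes-positive and 28.2% of Eomes-negative cells. Itgam was detected in 23.1% of Eomes-positive and 3.51% of Eomes-negative cells, but 3.76% of B cells also had an Itgam UMI. Summed over cells, Itgam was at 17.1 CPM in B cells, against 6.02 CPM in Eomes-negative cells. Whether the share in Eomes-negative cells is background was not tested. Genes of late maturation were rarer: S1pr5, an exit receptor, was detected in 8.28% of Eomes-positive and 0.701% of Eomes-negative cells. Klrg1, an inhibitory receptor of late NK cells, was detected in 5.33% of Eomes-positive and 2.49% of Eomes-negative cells. In B cells the shares were 0.047% for S1pr5 and 0.165% for Klrg1.

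Summed over cells within each mouse, 420 of 7556 genes tested (5.56%) differed between Eomes-positive and Eomes-negative cells of the same liver at an adjusted p under 0.05 in edgeR's quasi-likelihood test. Of these, 202 were higher (2.67%) and 218 lower (2.89%) in Eomes-positive cells. The count depends on the libraries used: it was 227 without control 1 and between 285 and 514 when any other library was left out. It was 615 of 6467 genes tested (310 higher and 305 lower) without cells of 15000 or more UMIs. That is a larger share, beside which the list counts given below without the deep cells stand. With each cell thinned to 1500 UMIs it was 202 of 2820. Levels below are CPM over the UMIs of the summed cells, and folds come from the fit, which also adjusts for library composition.

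The genes of mature NK cells rose together. Of 14 tested, 12 were higher, 0 were lower and the median log2 fold change was 1.80, against -0.02 over all genes. Without cells of 15000 or more UMIs the count was 12 of 13, and under the other alternatives it was between 8, of 9 tested, and 13. Klra4 ran from 152.7 to 475 CPM in Eomes-positive sums (median 344), against 1.35 to 12.1 CPM in Eomes-negative sums (median 6.26). Its log2 fold change was 5.57 (SE 0.424, adjusted p = 0.000174). Klra8 ran from 144 to 444 CPM in Eomes-positive sums (median 329.8), against 5.86 to 19.2 CPM in Eomes-negative sums (median 13.3), and its log2 fold change was 4.64 (SE 0.271, adjusted p = 4.64e-07). For both genes every Eomes-positive sum lay above every Eomes-negative sum, as in 3.26% of the genes tested in either direction.

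The killing machinery was split. Of 20 cytotoxic granule and death ligand genes tested, 3 were higher and 3 lower (median log2 fold change -0.06). Without the deep cells 3 of 20 were higher and 6 lower. Gzma ran from 803 to 1957 CPM in Eomes-positive sums (median 1521), against 144 to 442 CPM in Eomes-negative sums (median 258), and its log2 fold change was 2.49 (SE 0.3, adjusted p = 0.00629). Prf1 ran from 64.7 to 294 CPM in Eomes-positive sums (median 163.8), against 46.9 to 56.2 CPM in Eomes-negative sums (median 53.7), and its log2 fold change was 1.57 (SE 0.26, adjusted p = 0.00237). Both genes were higher in 6 of 6 livers without overlap. Stx11, a syntaxin needed for granule release, rose by less, with a log2 fold change of 0.95. Gzmc, another granzyme gene (chromosome 14, 56231441 to 56234656, minus strand), went the other way, at 0 to 11.1 CPM in Eomes-positive sums, against 41.9 to 181 CPM in Eomes-negative sums (log2 fold change -5.12, SE 0.467, adjusted p = 3.04e-06). Only 4 Gzmc UMIs were counted in the Eomes-positive cells, so the size of that fold is loosely set. Tnfsf10, which encodes the death ligand TRAIL, was lower as well, with a log2 fold change of -1.40. Gzmb, the granzyme most used as a killing marker, did not pass the test (log2 fold change 0.51, adjusted p = 0.425).

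**Figure D3:**
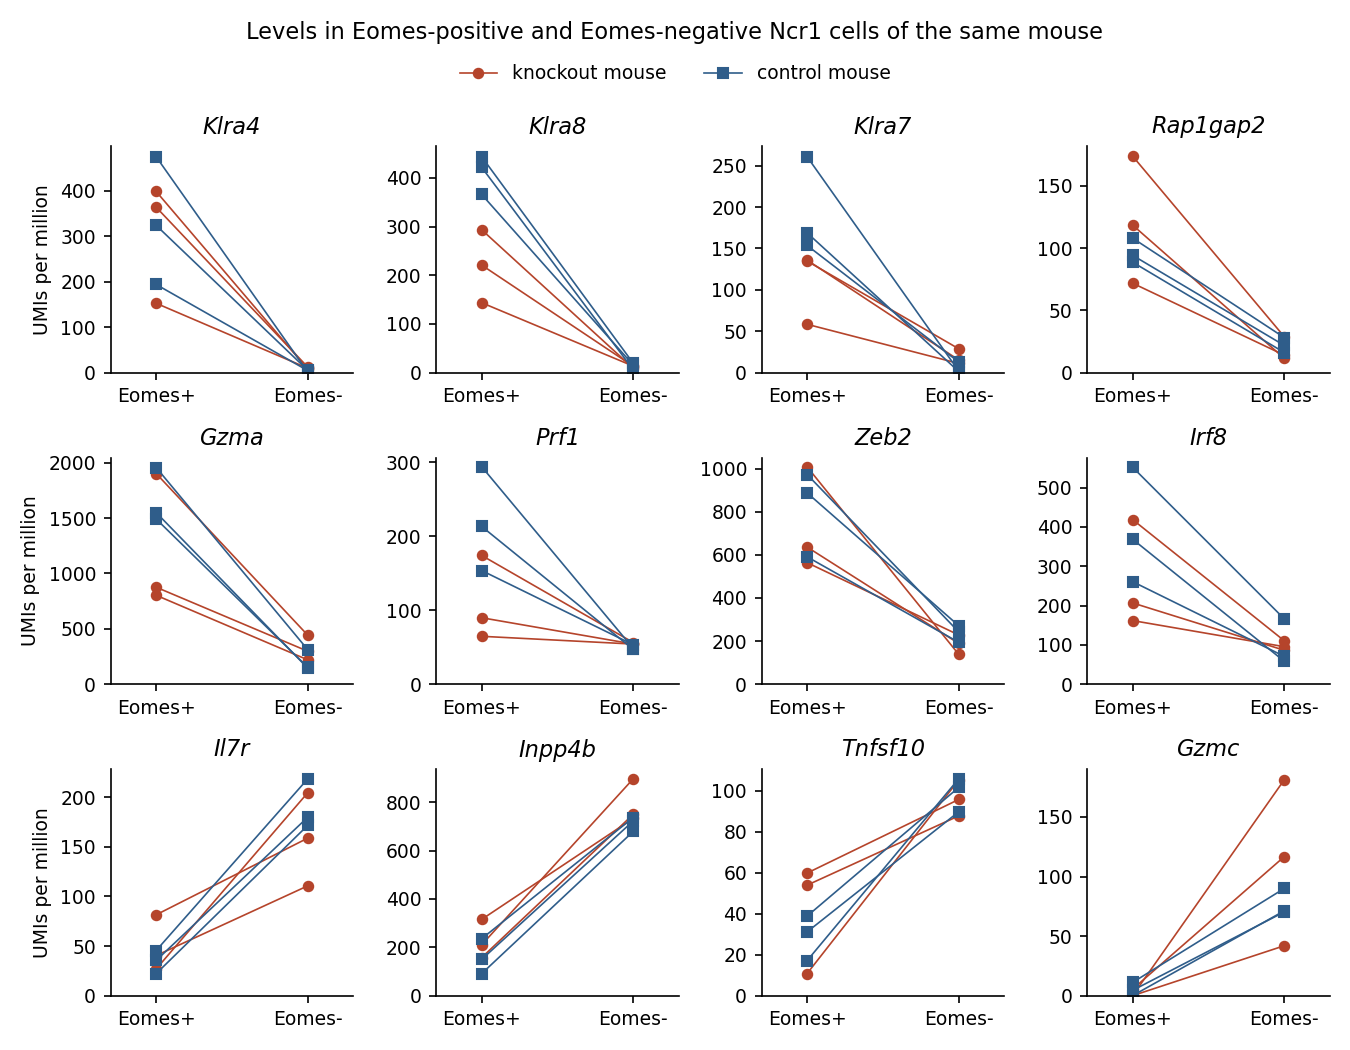
CPM of 12 genes in the Eomes-positive and the Eomes-negative sum of each mouse, joined by a line; circles are knockout and squares control mice, and each y axis starts at 0. All 6 lines fall to the right for the Klra genes, Rap1gap2, Gzma, Prf1, Zeb2 and Irf8, and all 6 rise for Il7r, Inpp4b, Tnfsf10 and Gzmc.

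Receptors changed in both directions. Of 13 activating receptors tested, 4 were higher (Klra4, Klra8, Cd2 and Crtam) and 4 lower (Cd226, Cd160, Cd244a and Klrb1a). Without the deep cells 4 were higher and 6 lower, and with a wider gate, described below, 4 were higher and 8 lower. Cd226, which encodes the adhesion receptor DNAM-1, ran from 113 to 337 CPM in Eomes-positive sums and 411 to 560.3 CPM in Eomes-negative sums, and its log2 fold change was -1.29 (SE 0.188, adjusted p = 0.000859). Of 14 inhibitory receptors, 5 were higher (Klra1, Klra3, Klra7, Klra9 and Klri2) and 4 lower (Klrb1b, Klrc1, Cd200r1 and Lag3). Without the deep cells 6 of 14 were higher and 5 lower, and with the wider gate 6 of 15 were higher and 5 lower. The call for Klra7, with a log2 fold change of 3.82 (adjusted p = 0.0358), was lost when knockout 1, knockout 2, control 1 or control 3 was left out, with adjusted p up to 0.114. Of 16 adaptors and kinases that carry the signal inward, 5 were higher (Cd247, Sh2d1a, Sh2d2a, Fyn and Syk) and 1 lower (Vav3), and without the deep cells 6 were higher and 2 lower. Sh2d1a, the adaptor SAP, ran from 32.3 to 97.7 CPM in Eomes-positive sums, against 5.79 to 12.6 CPM in Eomes-negative sums (log2 fold change 2.73, SE 0.328, adjusted p = 5.9e-05). The sets did not overlap. Calls for Cd2, Cd244a, Klrb1a, Lag3, Sh2d2a and Syk were also lost in at least 1 of the fits that left out a single library (control 1 for each of the 6, with adjusted p up to 0.205 for Cd2). Members of lists beyond the 4 of smallest p are named here and below after their values were seen.

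The ILC1 genes fell almost as a block, with 15 of 18 tested lower, 0 higher and a median log2 fold change of -1.15. The count was 16 of 18 without cells of 15000 or more UMIs and between 12 and 16 under the other alternatives. Il7r, the receptor for interleukin 7, ran from 22.2 to 81.5 CPM in Eomes-positive sums, against 111 to 219 CPM in Eomes-negative sums (log2 fold change -1.99, SE 0.23, adjusted p = 4.42e-05). Inpp4b, a lipid phosphatase gene, ran from 91 to 315 CPM in Eomes-positive sums, against 679.6 to 897 CPM in Eomes-negative sums (log2 fold change -2.01, SE 0.163, adjusted p = 2.88e-06). Neither gene overlapped between the sets. Cxcr6, a receptor that holds lymphocytes in liver sinusoids, was lower too (log2 fold change -2.26, SE 0.366, adjusted p = 0.00281). Il7r stood higher in the cells closest to the threshold: summed over cells with exactly 1 Eomes UMI it was at 58.7 CPM, against 26 CPM over cells with at least 2.

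Among 32 transcription factors tested, 9 were higher in Eomes-positive cells and 5 lower. Those higher were Zeb2, Irf8, Myb, Foxo1, Klf2, Prdm1, Bach2, Tcf7 and Runx2. Zeb2, a repressor linked to terminal maturation of mouse NK cells, ran from 564 to 1008 CPM in Eomes-positive sums, against 138 to 271 CPM in Eomes-negative sums (log2 fold change 1.87, SE 0.172, adjusted p = 3.66e-05). Myb, a factor of progenitor cells, ran from 17.8 to 89.8 CPM in Eomes-positive sums, against 3.21 to 8.91 CPM in Eomes-negative sums (log2 fold change 3.12, SE 0.377, adjusted p = 5.9e-05). The 5 lower factors were Rora, Tox, Ikzf2, Ahr and Id2. Rora, an orphan nuclear receptor of innate lymphoid cells, ran from 416 to 742 CPM in Eomes-positive sums, against 743 to 1172 CPM in Eomes-negative sums (log2 fold change -0.83, SE 0.111, adjusted p = 0.000156). Prdm1, Klf2, Tcf7, Bach2 and Id2 lost their calls without control 1, and Prdm1, Klf2, Tcf7 and Id2 without some other libraries as well, with adjusted p up to 0.192 for Prdm1. Tcf7 was not called without the deep cells either (0.45, adjusted p = 0.0631), while the number of lower factors was then 8 of 32. Tbx21 itself did not pass the test (log2 fold change -0.25, adjusted p = 0.254), but was called lower (-0.43, adjusted p = 0.0258) with a wider gate, which asked for at least 1 UMI of Ncr1 or Klrb1c and held 329 Eomes-positive cells. Genes of immature NK cells were divided, with 3 of 11 higher, 4 lower and a median log2 fold change of -0.07. Myb, Tcf7 and Ctla2a stood among the higher and Cd7, Ltb and Xcl1 among the lower, and Cd7, Ltb and Xcl1 are also on the ILC1 list.

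Homing molecules followed a similar split, with 4 of 19 higher, among them Itga4, Itgam and Itga2, and 2 lower, Cxcr6 and Itga1. Without the deep cells 4 of 17 were higher and 4 lower. Itga2 (CD49b) and Itga1 (CD49a) are the integrin pair by which mouse NK cells and ILC1 are commonly sorted. Itga2 had a log2 fold change of 1.45 (SE 0.219) and Itga1 one of -1.39 (SE 0.255), each in the same direction in 6 of 6 livers without overlap. Of 10 secreted cytokines and chemokines tested, 0 were higher and 3 lower (Xcl1, Ltb and Tnf), and without the deep cells 2 of 9 were higher and 3 lower. Ifng was not called (log2 fold change -0.34, adjusted p = 0.404), and an Ifng UMI was present in 71.6% of Eomes-positive and 69.1% of Eomes-negative cells, against 1.59% of B cells. Of 17 cytokine receptors, 1 was higher (Il18rap) and 3 lower (Il7r, Il21r and Ifnar2). Il18rap and Ifnar2 lost their calls without any single library other than knockout 3 (adjusted p up to 0.202 and 0.162), and Tnf lost its call without any single knockout library or control 3 (adjusted p up to 0.165).

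Of the genes of largest fold outside these lists, Rap1gap2, which encodes an inhibitor of the GTPase Rap1, ran from 71.9 to 174 CPM in Eomes-positive sums, against 11.5 to 28.9 CPM in Eomes-negative sums. Its log2 fold change was 2.44 (SE 0.223, adjusted p = 3.04e-06). Eya1, a phosphatase and transcriptional cofactor, ran from 94.3 to 288 CPM in Eomes-positive sums, against 21.4 to 82 CPM in Eomes-negative sums (log2 fold change 2.03, SE 0.257, adjusted p = 0.000373). Both genes were separated without overlap. Aff3 and Tmem163 had log2 fold changes of 1.90 and 1.76. Aff3 was higher still in B cells, at 967 CPM, against 383 CPM in Eomes-positive cells. The 13 B and plasma cell markers summed to 128 to 408 CPM in knockout and 114 to 344 CPM in control Eomes-positive cells, and to 165 to 307 CPM in knockout and 216 to 284 CPM in control Eomes-negative cells. Airn, with a log2 fold change of 2.37, is annotated as an antisense transcript, and since the strand setting of the counting is not given its reads cannot be told apart from those of an overlapping gene.

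Of the 12 lower genes of largest fold, 9 were Sulf1, Igfbp5, Gas1, Rarres2, Msln, Igfbp6, Rbfox1, Grip1 and Col14a1, among which Msln is a mesothelial marker and Col14a1 a fibroblast collagen. Igfbp5 ran from 0 to 18 CPM in Eomes-positive sums, against 27.1 to 382 CPM in Eomes-negative sums. Without cells of 15000 or more UMIs none of these 9 passed the filter on low counts, and only Gzmc and Ttn of the 12 were still called. With the wider gate none of the 9 was called (adjusted p 0.0985 for Msln to 0.49 for Rbfox1). The 12 markers of stellate cells, fibroblasts and mesothelium summed to 5.39 to 337 CPM in knockout and 5.55 to 22.2 CPM in control Eomes-positive cells, against 133 to 781 CPM in knockout and 305 to 465 CPM in control Eomes-negative cells. Without the deep cells they summed to 4.45 to 6.1 CPM in knockout and 6.82 to 22.2 CPM in control Eomes-positive cells, against 9.46 to 38 CPM in knockout and 9.25 to 78.5 CPM in control Eomes-negative cells. Scrublet, a doublet caller, marked 0 Eomes-positive cells of knockout 3, 1 Eomes-positive cell of control 3 and 17 Eomes-negative cells over all libraries. Beyond that call, whether the deep cells hold RNA of more than 1 cell was not tested. H2-Aa, an MHC class II gene of antigen-presenting cells, was called lower with a log2 fold change of -2.71, which was -0.60 and not called without the deep cells. It was not called without knockout 1, knockout 2 or control 1 either (adjusted p up to 0.0895).

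**Figure D4:**
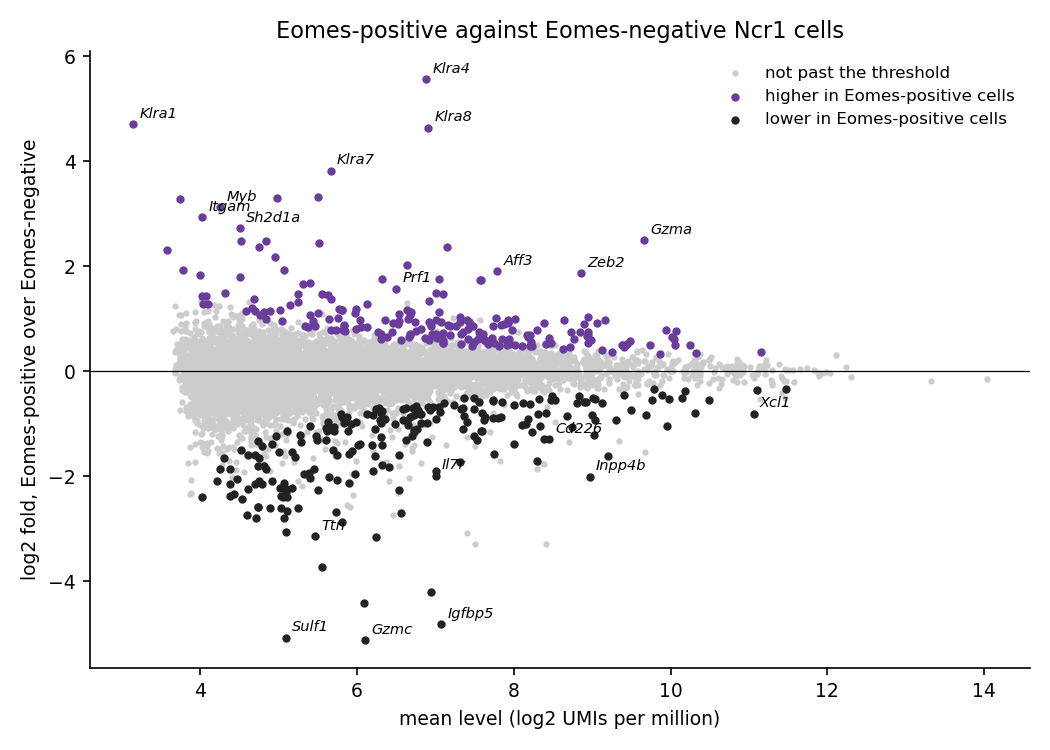
Log2 fold change of Eomes-positive over Eomes-negative cells (y) against mean level in log2 CPM (x) for the 7556 genes tested; purple points are the 202 genes called higher and black points the 218 called lower. Klra4, Klra8 and Gzma stand above the cloud at moderate to high level, and Gzmc, Sulf1 and Igfbp5 lie lowest.

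T-box factors such as Eomes and T-bet bind the core GGTGTGA. The promoters of genes named above that hold it are shown because Eomes defined the cells. RefSeq promoter windows (GRCm38.p6, 250 bases before to 50 after an annotated start, of which a gene can have more than 1) were searched for these 7 letters on both strands. They were present in 1307 of 32851 windows (3.98%) and in at least 1 window of 243 of the 6086 tested genes that matched by symbol (3.99%). Among the called genes they were present in 9 of 160 matched higher genes (5.62%) and 10 of 165 matched lower genes (6.06%), so the core was about as frequent in both directions. Among the named genes Rap1gap2, Itga4, Klra1 and Myb (higher) and Cd160 and Xcl1 (lower) held it, and a pair of each is printed with the core in capitals. The window of Rap1gap2 is at chr11:74558978-74559277 (minus strand), that of Itga4 at chr2:79255176-79255475 (plus strand), that of Cd160 at chr3:96814472-96814771 (minus strand) and that of Xcl1 at chr1:164935473-164935772 (minus strand). The Rap1gap2 and Cd160 windows lie inside these minus-strand genes, which begin at 74610915 and 96829351, and not at the outermost start.
Rap1gap2: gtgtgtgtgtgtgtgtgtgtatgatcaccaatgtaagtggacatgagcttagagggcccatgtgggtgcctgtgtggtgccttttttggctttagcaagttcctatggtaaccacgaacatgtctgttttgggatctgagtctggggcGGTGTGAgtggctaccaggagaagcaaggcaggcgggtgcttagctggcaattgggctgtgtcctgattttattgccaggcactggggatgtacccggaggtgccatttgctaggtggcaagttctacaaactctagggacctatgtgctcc
Itga4: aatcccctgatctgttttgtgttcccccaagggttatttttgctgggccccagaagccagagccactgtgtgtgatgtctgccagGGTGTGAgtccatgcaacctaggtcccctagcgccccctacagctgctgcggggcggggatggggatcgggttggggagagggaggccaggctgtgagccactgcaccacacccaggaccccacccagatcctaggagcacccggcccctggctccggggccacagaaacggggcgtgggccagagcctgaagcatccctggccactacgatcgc
Cd160: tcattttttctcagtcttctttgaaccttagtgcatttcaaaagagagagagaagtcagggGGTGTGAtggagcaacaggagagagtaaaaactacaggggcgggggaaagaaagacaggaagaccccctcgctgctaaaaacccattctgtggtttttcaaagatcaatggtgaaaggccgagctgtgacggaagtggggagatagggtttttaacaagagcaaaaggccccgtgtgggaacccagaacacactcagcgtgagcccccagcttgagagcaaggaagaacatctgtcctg
Xcl1: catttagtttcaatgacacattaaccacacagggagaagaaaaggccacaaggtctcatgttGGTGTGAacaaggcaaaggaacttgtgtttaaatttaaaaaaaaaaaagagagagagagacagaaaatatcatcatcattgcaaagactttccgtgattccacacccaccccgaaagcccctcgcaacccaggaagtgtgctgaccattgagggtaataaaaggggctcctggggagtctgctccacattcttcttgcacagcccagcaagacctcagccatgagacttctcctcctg
Itga4 was higher, at 509.8 to 844 CPM in Eomes-positive sums and 327 to 429.6 CPM in Eomes-negative sums (log2 fold change 0.92, SE 0.105). Xcl1, a chemokine that draws cross-presenting dendritic cells, was lower, at 916 to 2223 CPM in Eomes-positive sums and 1902 to 3294 CPM in Eomes-negative sums (log2 fold change -0.81, SE 0.123). A match to these letters is a description and not a measured binding site.

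The genotype comparison asks whether loss of Sting from endothelium altered these NK cells. Sting1, the targeted gene, gave 0, 1 and 7 UMIs in knockout Eomes-positive cells, against 4, 5 and 4 in control Eomes-positive cells. That is 0, 5.39 and 15.7 CPM in knockout and 17.8, 27.7 and 22.8 CPM in control sums. The 0 in knockout 1 allows up to 16.3 CPM, and the gene was under the filter on low counts and was not tested. A 3′ read need not come from the deleted exons, so these counts do not check the deletion. In Eomes-negative cells Sting1 was at 11.6, 11.5 and 14.9 CPM in knockout and 16.7, 15.4 and 21.2 CPM in control sums.

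No gene passed the test between knockout and control Eomes-positive cells: edgeR called 0 of 3389 (0%), and DESeq2 called 0. In edgeR 142 genes had an unadjusted p under 0.05, where 169 would be expected if no gene differed. Knockout and control sums were free of overlap for 8.62% of these genes, with 3.75% higher and 4.87% lower in knockout cells. Values below are therefore descriptions of 3 mice against 3. With no filter on low counts edgeR called 20 genes. Cells with exactly 1 Eomes UMI numbered 14 of 25, 15 of 25 and 17 of 39 in knockout libraries. In control libraries they numbered 16 of 33, 8 of 25 and 8 of 22. Over all libraries Klra8 was at 165.5 CPM in such cells, against 393.8 CPM in cells with at least 2. Prf1 was at 100.8 CPM, against 198.3 CPM. The part of this mix of cells in the genotype values below was not tested.

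Klra8, Prf1, Hcst and Ifng are given as the genes of small unadjusted p in their lists, and Gzma as a marker. The activating receptors as a list were even, with 6 of 12 higher and 6 lower in knockout cells (median log2 fold change -0.06, and 0.01 without the deep cells). Klra8 had 294, 221 and 144 CPM in knockout sums, against 422, 366 and 444 CPM in control sums. The genotypes did not overlap, and the log2 fold change was -0.94 (SE 0.278, unadjusted p = 0.00364, adjusted p = 0.997). Prf1 had 174, 64.7 and 89.8 CPM in knockout sums, against 213, 294 and 154 CPM in control sums (log2 fold change -1.01, SE 0.36, unadjusted p = 0.0121, adjusted p = 0.997). The knockout 1 value lay within the control range. Hcst, which encodes the NKG2D adaptor DAP10, had 147, 296 and 128 CPM in knockout sums, against 533, 299.5 and 307 CPM in control sums, just without overlap (log2 fold change -1.04, SE 0.328, adjusted p = 0.997). Ifng had 468, 226 and 368 CPM in knockout sums, against 706, 660.1 and 569 CPM in control sums, again without overlap (log2 fold change -0.84, SE 0.27, adjusted p = 0.997). Gzma had 1903, 803 and 876 CPM in knockout sums, against 1550, 1492 and 1957 CPM in control sums, with knockout 1 among the controls (log2 fold change -0.49, SE 0.296, adjusted p = 0.997).

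Part of these differences moved with the deep cells. When cells of 15000 or more UMIs were left out of every library, the log2 fold change was -0.22 for Gzma, -0.26 for Klra7 (-0.88 with all cells), -0.80 for Klra8, -0.81 for Prf1, -0.99 for Hcst and -0.59 for Ifng, and none was called. Klra7 then stood at 149, 152.5 and 111 CPM in knockout sums and 169, 130 and 192 CPM in control sums, where control 2 had 260.7 CPM with all cells. Klra8 stood at 309, 195 and 267 CPM in knockout sums and 422, 382 and 545 CPM in control sums, still without overlap. Prf1 stood at 190.1, 73.2 and 151 CPM in knockout sums and 213, 334 and 192 CPM in control sums, where the closest values, 190.1 and 192 CPM, lay less than the worth of 1 UMI apart. Ifng overlapped between the genotypes, at 475, 256 and 583 CPM in knockout sums and 706, 525 and 759 CPM in control sums. Fos, an immediate early gene that cell isolation can also induce, had 1577, 1902 and 3854 CPM in knockout sums, against 1190, 1059 and 1866 CPM in control sums (log2 fold change 0.87, SE 0.36, adjusted p = 0.997). Without the deep cells it stood at 1681, 2062 and 2201 CPM in knockout sums and 1190.3, 1241 and 1595 CPM in control sums.

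**Figure D5:**
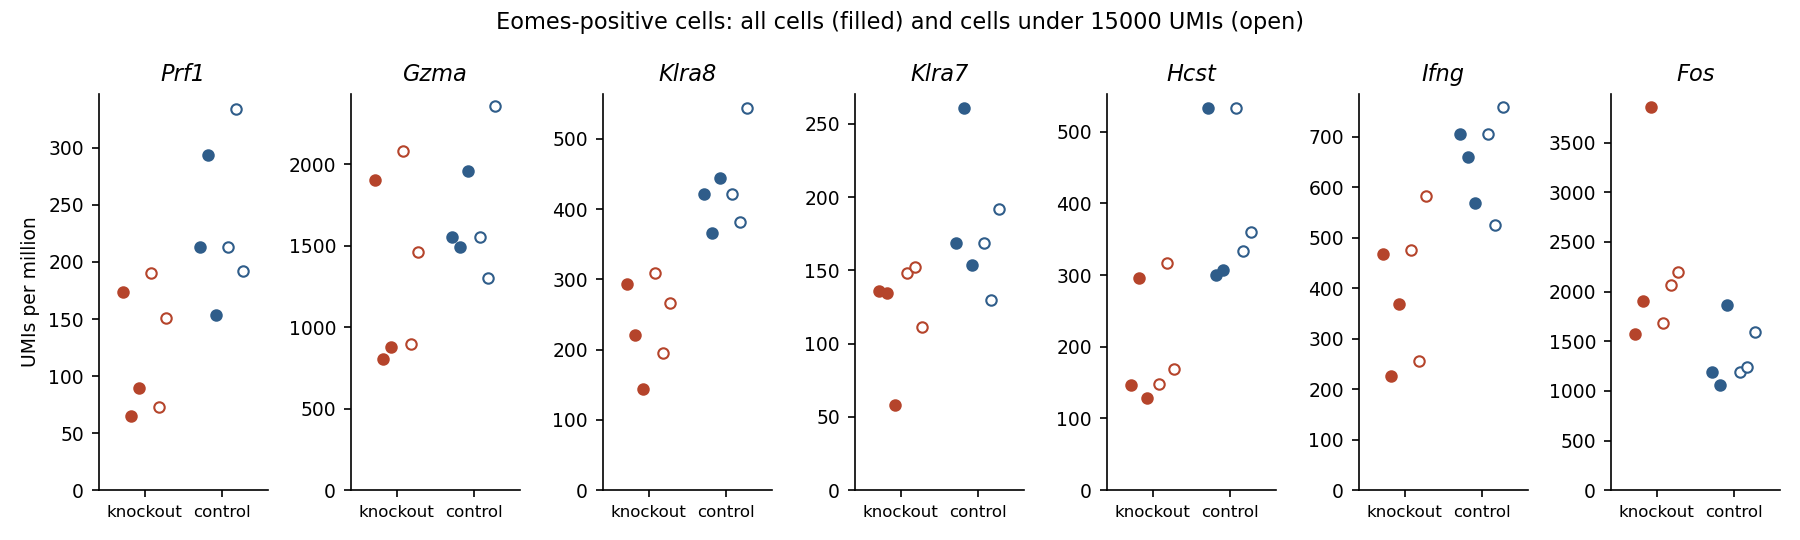
CPM in Eomes-positive cells of each knockout (left) and control (right) mouse for 7 genes; filled points use all cells and open points cells under 15000 UMIs, and each y axis starts at 0. Klra8 and Hcst are lower in all knockout mice with and without the deep cells, the genotypes overlap for Gzma in both, and Fos overlaps only with all cells.

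Of 3386 genes tested outside the gate, 1736 were higher and 1650 lower in knockout cells (median log2 fold change 0.01). By list, 0 of 10 mature NK genes tested were higher and 10 lower, with a median of -0.32. All 8 inhibitory receptors tested were lower (median -0.27), as were 11 of 14 adaptors (median -0.26) and 10 of 15 cytotoxic genes (median -0.24). Secreted cytokines and chemokines were lower for 6 of 8 (median -0.48, and -0.37 without the deep cells). Interferon-gamma-induced genes went the other way, with 9 of 12 higher (median 0.24, and 0.17 without the deep cells). Transcription factors were 12 higher and 16 lower (median -0.12), cytokine receptors 6 higher and 6 lower (median -0.03), and activating receptors even as given above. None of these genes was called. Without the deep cells all 8 inhibitory receptors were lower (median -0.19), as were 9 of 11 mature NK genes (median -0.22), 9 of 14 adaptors (median -0.09) and 9 of 15 cytotoxic genes (median -0.09). With all cells, ILC1 genes leaned the other way by a small margin, with 9 of 13 higher and a median of 0.07. Without the deep cells they were nearly even, with 7 of 12 higher and 5 lower (median 0.08). The genes of a list are not independent, and these lists were not tested as sets. The lists also share members: Klra8 is an activating receptor and a mature NK gene, and Prf1 a cytotoxic and a mature NK gene.

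Of genes outside the lists, Nfia, a nuclear factor, had 92.4, 59.3 and 191 CPM in knockout sums, against 31.1, 11.1 and 34.1 CPM in control sums (log2 fold change 2.25, SE 0.528, unadjusted p = 0.000521, adjusted p = 0.883). Immp2l, a mitochondrial protease subunit, had 446, 199 and 186 CPM in knockout sums, against 66.6, 83.2 and 137 CPM in control sums (log2 fold change 1.53, SE 0.387, adjusted p = 0.921). Rab31, a trafficking GTPase, had 21.7, 21.6 and 31.4 CPM in knockout sums, against 111, 66.6 and 131 CPM in control sums (log2 fold change -1.93, SE 0.434, unadjusted p = 0.000356, adjusted p = 0.883). None of the 3 overlapped between genotypes. Knockout 3 held 85 Nfia UMIs, against 17 and 11 in the other knockout libraries. Without the deep cells Nfia was no longer tested and stood at 41.6, 67.1 and 57.8 CPM in knockout sums and 31.1, 13.6 and 0 CPM in control sums. Immp2l and Rab31 had log2 fold changes of 1.55 and -2.17 without the deep cells. With the wider gate the folds were smaller, at 0.82 for Nfia, 0.93 for Immp2l and -1.04 for Rab31. Csrp1, Nrgn and Gm47283 were the next on the higher side, with log2 fold changes of 1.32, 1.48 and 1.11, and Atp8a1, Tex14 and Sipa1l2 on the lower side, with -1.11, -1.17 and -1.37. Of these, Csrp1, Atp8a1, Tex14 and Sipa1l2 moved to 0.82, -0.35, -0.72 and -0.54 with the wider gate, and Tex14 to -0.38 without cells holding other-lineage UMIs.

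No interferon-stimulated or STING pathway gene passed the test between the genotypes. Of 10 interferon-stimulated genes tested 6 were higher and 4 lower in knockout cells (median log2 fold change 0.12). Bst2, an antiviral tether, had the smallest unadjusted p of them (log2 fold change 1.03, SE 0.475, adjusted p = 0.997). Its fold was 0.18 with the wider gate, and without the deep cells it was not tested. Of 8 STING pathway genes 3 were higher and 5 lower (median -0.12). Traf3, a brake on non-canonical NF-kB, had 185, 243 and 220.1 CPM in knockout sums, against 382, 366 and 329.9 CPM in control sums, without overlap (log2 fold change -0.72, SE 0.251, adjusted p = 0.997). Between the sets, 2 STING pathway genes were higher in Eomes-positive cells, Cgas, the DNA sensor (log2 fold change 1.49, SE 0.312, adjusted p = 0.00674, and 0.0571 without control 1) and Nfkb1 with 0.79 (SE 0.131, adjusted p = 0.002). Without the deep cells 4 of 12 STING pathway genes were called higher, beside 310 of all 6467 genes tested. Sting1 itself was at 15 CPM over Eomes-positive and 15.3 CPM over Eomes-negative cells.

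Whether the genotype effect differed between the sets was tested in 8650 genes, of which 2 (0.0231%) were called, S100a8 and Rspo3. Both calls rested on single libraries and are described at the end. Gzma came near: its genotype effect was lower in Eomes-positive than in Eomes-negative cells by 1.26 on the log2 scale (-1.26, SE 0.224, adjusted p = 0.088). In Eomes-negative cells Gzma had 442, 219 and 297 CPM in knockout sums, against 144, 152 and 311 CPM in control sums. The adjusted p of this difference ran from 6.97e-06 with no filter on low counts to 0.677 without control 2, and it was 0.363 without cells of 15000 or more UMIs, where the difference was -0.77.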

How the data were processed

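The authors deposited matrices of raw counts of UMIs per gene and barcode for 6 whole-liver libraries, 1 per mouse. Per the file headers they were written by Cell Ranger 7.1.0, and the submitters' processing notes name mm10 and Seurat 4.1.1. The annotation release is not given in the sources used here, so coordinates come from GENCODE release M21 (GRCm38), matched by Ensembl identifier. Libraries held 55017937 to 73867890 UMIs over 5133 to 9212 barcodes.

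Barcodes of 300 or more genes with a mitochondrial share of 20% or less were gated on raw counts. Scrublet, as implemented in scanpy 1.11.5 with an expected rate of 0.06, set a workable threshold in 4 of 6 libraries. At their median of 0.267, chosen after the scores were seen, 1 Eomes-positive and 17 Eomes-negative cells were marked. They were kept in the main sums and left out in an alternative. Raw UMIs of the gated cells were summed per mouse, so the mouse is the replicate.

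Knockout was compared with control, Eomes-positive with Eomes-negative sums (library as a term, gate genes removed), and their interaction was tested, with edgeR 4.0.16 (R 4.3.3; TMM, filterByExpr, robust quasi-likelihood F-test). Benjamini-Hochberg adjustment ran over all genes tested, with a threshold of 0.05. SE is the log2 fold change divided by the root of F. Values after ± are SD. DESeq2 1.42.0 was an alternative. The fits were tested on simulated data. Shares were compared by exact permutation (scipy 1.17.1).

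Named genes were the 12 of largest fold each way between the sets (mean log2 CPM of at least 5, same direction in 6 libraries), the 5 of smallest p each way between genotypes, the 5 markers, and up to 4 of smallest p in each of 34 gene lists. Cells, members and lists were chosen with earlier results of these data known. The fits without cells of 15000 or more UMIs, without cells holding other-lineage UMIs in the comparison of sets, with a wider gate, and with thinned cells in the genotype comparison were added after the data were seen.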

Additional observations from a re-analysis of the deposited data

Results flagged for a closer look

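The effect of genotype in Eomes-positive cells was set against that in Eomes-negative cells by an interaction term, and 2 genes are given here because their difference passed the threshold. S100a8, a neutrophil gene, had a difference of -4.50 on the log2 scale (SE 0.693, adjusted p = 0.0354). It had 5, 1 and 0 UMIs in knockout and 0, 0 and 387 UMIs in control Eomes-positive cells, so control 3 held nearly all of them. In Eomes-negative cells it had 77.8, 4.11 and 2.23 CPM in knockout and 1.8, 0.643 and 218 CPM in control sums. The difference was 2.08 without control 3, 9.0 with doublets left out and 7.54 without cells of 15000 or more UMIs, and it was not called in any of these fits (adjusted p = 0.997, 0.192 and 0.477). DESeq2 did not call it (-2.98), nor was it called without knockout 1 (-3.76, adjusted p = 0.535). Neutrophil markers summed to 6735 CPM in the Eomes-positive cells of control 3.

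Rspo3, which encodes a Wnt amplifier made by liver endothelium, had a difference of 4.55 (SE 0.709, adjusted p = 0.0354). It had 0, 0 and 113 UMIs in knockout and 0, 0 and 5 UMIs in control Eomes-positive cells. Eomes-negative sums had 1.58, 0 and 82.5 CPM in knockout and 20.7, 1.29 and 197 CPM in control mice. Without knockout 3 the difference was 0.22, it was not called without control 1 (4.30, adjusted p = 0.0852), without control 3 (8.04, adjusted p = 0.787) or by DESeq2 (4.22), and without cells of 15000 or more UMIs no Rspo3 UMI remained in any Eomes-positive sum. Endothelial markers summed to 831 CPM in knockout 3. The part of RNA from other cells in both calls was not tested.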

How the results depend on the processing

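Between the sets the count of 420 genes was 704 with no filter on low counts and 202 with cells thinned to 1500 UMIs, and it ran from 227 to 514 when 1 library was left out. It was 474 with DESeq2, 428 with RLE size factors, 421 with doublets left out, 615 without cells of 15000 or more UMIs, 575 without cells holding other-lineage UMIs, 567 with a wider gate and 422 for at least 2 Eomes UMIs. Without the library term, that is with no replicate block, it was 315. Of the 420 genes, 155 were also called in the thinned sums and 357 without the deep cells. No named gene changed direction between the sets under any alternative run.

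Between genotypes the count was 0 under all alternatives except the absence of a filter on low counts, where it was 20. With a replicate block it was 0 too. The labels' numbers were not taken to pair the mice: deviations of same-numbered mice correlated at 0.0636, 0.147 and 0.226, with 5 of 6 mice correlating best with their own number, which is only a hint from the data. Fos changed sign with the wider gate (-0.02). For the difference in genotype effect the count of 2 was 1 with DESeq2, 71 with no filter, 12 with doublets left out and 1 without the deep cells, and 1 to 20 when 1 library was left out. S100a8 reversed to 2.08, 9.0 and 7.54 as given above, and ran from -4.77 to 2.08 when 1 library was left out.

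The difference in share of kept barcodes was -0.00697 percentage points with cells thinned before the gate, which left 14 cells, and -0.0233 for at least 2 Eomes UMIs. It ran from -0.0147 to 0.0885 when 1 library was left out, and was 0.0478 with the replicate block (exact permutation p = 0.5). In the Ncr1 gate the difference ran from 0.979 to 5.91 percentage points when 1 library was left out. It was 0.33 with cells thinned before the gate and 0.423 for at least 2 Eomes UMIs. With 22 to 39 cells per mouse, 1 UMI was worth 2.25 to 5.69 CPM, so changes in rare transcripts could not be resolved.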

Other observations

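Proliferation genes were present in a minority of the Eomes-positive cells. A Top2a UMI was found in 16% of Eomes-positive and 8.57% of Eomes-negative cells, against 10.1% of B cells, and a Mki67 UMI in 8.88%, 4.05% and 5.49%. In the sums Mki67 ran from 5.39 to 179.7 CPM in Eomes-positive and 23.2 to 82 CPM in Eomes-negative cells, with overlap. Of 16 cell cycle genes tested between the sets 0 were called (median log2 fold change 0.45, and 0 without cells of 15000 or more UMIs).

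Of 42 oxidative phosphorylation genes 0 were called between the sets (median 0.02), and Pfkp, the platelet-type phosphofructokinase of glycolysis, was the single gene of 14 in its list called higher (log2 fold change 0.92, SE 0.127, adjusted p = 0.000234). Of 30 heat shock genes 3 were lower, Hsph1, Dnaja1 and Dnajb1, with log2 fold changes of -0.56, -0.55 and -0.54. Of 25 immediate early genes Nr4a1 was higher (0.79) and Dusp1 and Btg2 lower (-0.51 and -0.46), of which Btg2 lost its call without knockout 2 or control 2 (adjusted p up to 0.0766). Without cells of 15000 or more UMIs 1 of 23 immediate early genes was higher and 7 were lower. In that fit 310 of all 6467 genes tested were called higher and 305 lower. B2m, the light chain of MHC class I, was lower by a small and even margin, at 1439 to 2172 CPM in Eomes-positive and 2278 to 2633 CPM in Eomes-negative sums (log2 fold change -0.36, adjusted p = 0.0126, and 0.0597 without knockout 2). It was the single gene of 18 on the MHC class I list called lower, against 3 without cells of 15000 or more UMIs. Of 27 interferon-stimulated genes 3 were lower between the sets, among them Ly6e (-0.93) and Ifi203 (-0.65, which lost its call without any single library other than control 2, with adjusted p up to 0.118). Cxcl10, on the list of interferon-gamma-induced genes, was higher (0.93, adjusted p = 0.00486), but at 0.39 it was not called without cells of 15000 or more UMIs.

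Trbc2 and Bcl11b, genes of T cells, were lower in Eomes-positive cells, with log2 fold changes of -1.31 and -1.51. The Cd3 genes were set to 0 by the gate in both sets.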
